A study of Mus musculus with 2 samples.

Results

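Stitched stretches of distal open chromatin were taken from DNase-seq of mouse spleen, an assay that maps open chromatin by where the enzyme DNase I cuts. The members are 1370 genomic stretches, which hold 9746 of the 38083 distal peaks of 1 library, or 25.6%. They were chosen on measured values: from the shorter peak list of replicate 2 (60683 peaks), peaks more than 1 kb from any start site of the GENCODE vM21 basic annotation were taken, peaks whose midpoints lay at most 12500 bases apart were joined, and joined stretches of at least 5 peaks were kept. Another 6520 groups of 2 to 4 peaks and 11819 lone distal peaks fell outside the rule.

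Both libraries were made from spleen tissue; the mice were 36-day-old B6CASTF1/J females, a cross between C57BL/6 and CAST mice, and the libraries form 1 group with no control group. The labels call them biological replicates 1 and 2 and describe differently numbered females, but attach the same donor entry to both, so the spread between them may be technical. How reads from the CAST chromosomes were placed on the mm10 reference is not given in the sources used here. Whole spleen is a mixture of cell types, so a weak peak in all cells and a strong peak in a few cells cannot be told apart. To check the tissue label, promoter peaks were sought in both libraries. All 22 genes of a B cell list had one in each, while 1 and 2 of 16 genes of other tissues had one in replicates 1 and 2. For comparison, 11720 and 12492 of the 21951 protein-coding genes had one in replicates 1 and 2. So did 10 and 18 of 23 T cell genes, and 0 of 9 neutrophil genes in each. The B cell list was compiled with earlier results of these data known, so the check was not independent.

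Genes that define a cell's identity often have several enhancers, which are stretches of DNA bound by transcription factors, in a row along the chromosome. Joining enhancers over short distances is the usual first step in the search for super-enhancers, which are then ranked by a histone mark or a coactivator. Neither was measured here, and the stretches are therefore runs of neighbouring open sites only. In B cells of the spleen such runs are known at genes of the B cell receptor and at lymphocyte transcription factors. Other rows of open sites lie at local repeats, copies of 1 sequence that recur along a locus, such as those of the noncoding genes Firre and Dxz4 on the X chromosome. Both loci are known to bind the insulator protein CTCF and to contact each other on the inactive X chromosome of females.

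The sequences below show the Firre and Dxz4 stretches, because some of their peaks repeat words within each locus and share words between the loci. The Firre stretch (chrX:50549861-50623440) held 28 replicate 2 peaks, and the Dxz4 stretch (chrX:75729961-75759340), inside the noncoding gene 4933407K13Rik, held 9. The longest words found in at least 5 peaks of each were 2 words of 12 bases, AAAAAACGCCAA and TGGCAGTAGAGC, read on either strand. Capitals mark both words. The 3 strongest peaks of each locus that carried the locus's own most frequent 20-base word and were overlapped in replicate 1 are printed, from the mm10 reference assembly of RefSeq. Firre is shown on the minus strand and Dxz4 on the plus strand, so that the words read in the same direction. All 6 peaks have their midpoint in an intron of the noncoding gene.
Firre peak chrX:50617061-50617220: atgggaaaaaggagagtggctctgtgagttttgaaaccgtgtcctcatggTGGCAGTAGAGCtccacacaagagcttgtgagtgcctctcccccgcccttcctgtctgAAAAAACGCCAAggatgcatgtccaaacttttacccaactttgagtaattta
Firre peak chrX:50605061-50605240: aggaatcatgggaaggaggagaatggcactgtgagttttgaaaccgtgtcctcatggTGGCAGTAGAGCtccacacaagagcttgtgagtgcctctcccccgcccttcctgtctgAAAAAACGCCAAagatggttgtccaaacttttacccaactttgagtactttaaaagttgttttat
Firre peak chrX:50566441-50566600: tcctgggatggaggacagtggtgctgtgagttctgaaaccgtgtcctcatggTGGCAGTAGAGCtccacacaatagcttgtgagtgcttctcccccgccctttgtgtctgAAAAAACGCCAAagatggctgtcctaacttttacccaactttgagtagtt
Dxz4 peak chrX:75733801-75734000: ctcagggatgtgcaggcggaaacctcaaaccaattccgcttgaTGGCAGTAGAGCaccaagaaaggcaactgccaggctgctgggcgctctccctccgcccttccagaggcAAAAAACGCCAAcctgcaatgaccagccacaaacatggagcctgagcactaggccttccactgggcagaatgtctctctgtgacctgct
Dxz4 peak chrX:75744581-75744780: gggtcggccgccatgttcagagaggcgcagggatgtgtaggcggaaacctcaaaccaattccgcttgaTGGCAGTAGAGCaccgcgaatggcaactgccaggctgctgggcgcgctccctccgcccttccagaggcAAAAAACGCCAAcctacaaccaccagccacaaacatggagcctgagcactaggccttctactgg
Dxz4 peak chrX:75759121-75759340: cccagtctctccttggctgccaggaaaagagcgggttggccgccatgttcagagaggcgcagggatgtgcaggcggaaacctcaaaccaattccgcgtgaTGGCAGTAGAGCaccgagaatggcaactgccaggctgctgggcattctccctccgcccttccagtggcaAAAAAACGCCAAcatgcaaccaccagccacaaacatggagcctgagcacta

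The word AAAAAACGCCAA was found in 8 of the 28 Firre peaks, in 8 of the 9 Dxz4 peaks and in 0 of the other 38046 distal peaks of replicate 2. The word TGGCAGTAGAGC was found in 10 Firre peaks, 6 Dxz4 peaks and 6 of the other 38046. Both words together were found in 6 peaks of each locus and in 0 other distal peaks. In the whole assembly the words occur 149 and 295 times, of which 26 and 36 lie on the X chromosome. The words were found by searching these peaks and were therefore chosen on their sequence, so their absence elsewhere is a description.

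Identical sequence between peaks of 1 stretch was uncommon. A word of 20 bases, on either strand, was found in at least 2 separate peaks of 33 stretches (2.41% of 1370) and in at least 4 peaks of only 3 stretches. At Firre the most frequent word, AGCTCTACTGCCACCATGAG, was in 8 peaks, 7 of them overlapped in replicate 1. All 8 copies of that word in the assembly lay in these peaks. At Dxz4 the word AAACATGGAGCCTGAGCACT was in 7 of 9 peaks, 5 of them overlapped in replicate 1, and the assembly holds 13 copies, all within the stretch. The remaining stretch, chr4:3053154-3086358 near the start of the assembled chromosome 4, had 7 peaks with 1 word that the assembly holds 173 times, and 46.0% of its peak bases were soft-masked repeats, against 9.42% at Firre and 0.960% at Dxz4. It held 24 distal peaks in replicate 2 and 26 in replicate 1, all weak, with a highest signal of 0.656 in replicate 2. Reads from near-identical copies can be placed on the wrong copy, and how such reads were treated is not given in the sources used here.

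Most peaks of the Firre stretch were found in both libraries. Peak signal, the authors' own value per peak and comparable only within a library, ran from 0.523 to 11 in replicate 2, with a median of 2.47, and from 0.707 to 8.55 in replicate 1, with a median of 2.37. Of the 28 peaks, 24 were overlapped by a replicate 1 peak. The strongest, chrX:50603021-50603180, had a signal of 11 in replicate 2 and 8.08 in replicate 1. Summed over the stretch the signal was 82.5 and 69.5, rank 3 of 1370 in replicate 2 and rank 2 in replicate 1. The nearest protein-coding start site, of the olfactory receptor gene Olfr1324, lay 121 kb away. The CTCF letters described below were in 0 peaks of either locus. They are a single short string, and other forms of a CTCF site were not searched. The absence of matches therefore does not show that the peaks lack CTCF sites, and binding was not measured. Peaks with the locus's 20-base word had a median replicate 2 signal of 2.43 and peaks without it 2.47. The Dxz4 stretch was weaker, with summed signals of 15.8 and 10.7, 7 distal peaks in replicate 1, and no protein-coding start site within 67.6 kb, the nearest being that of Pls3.

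**Figure D1:**
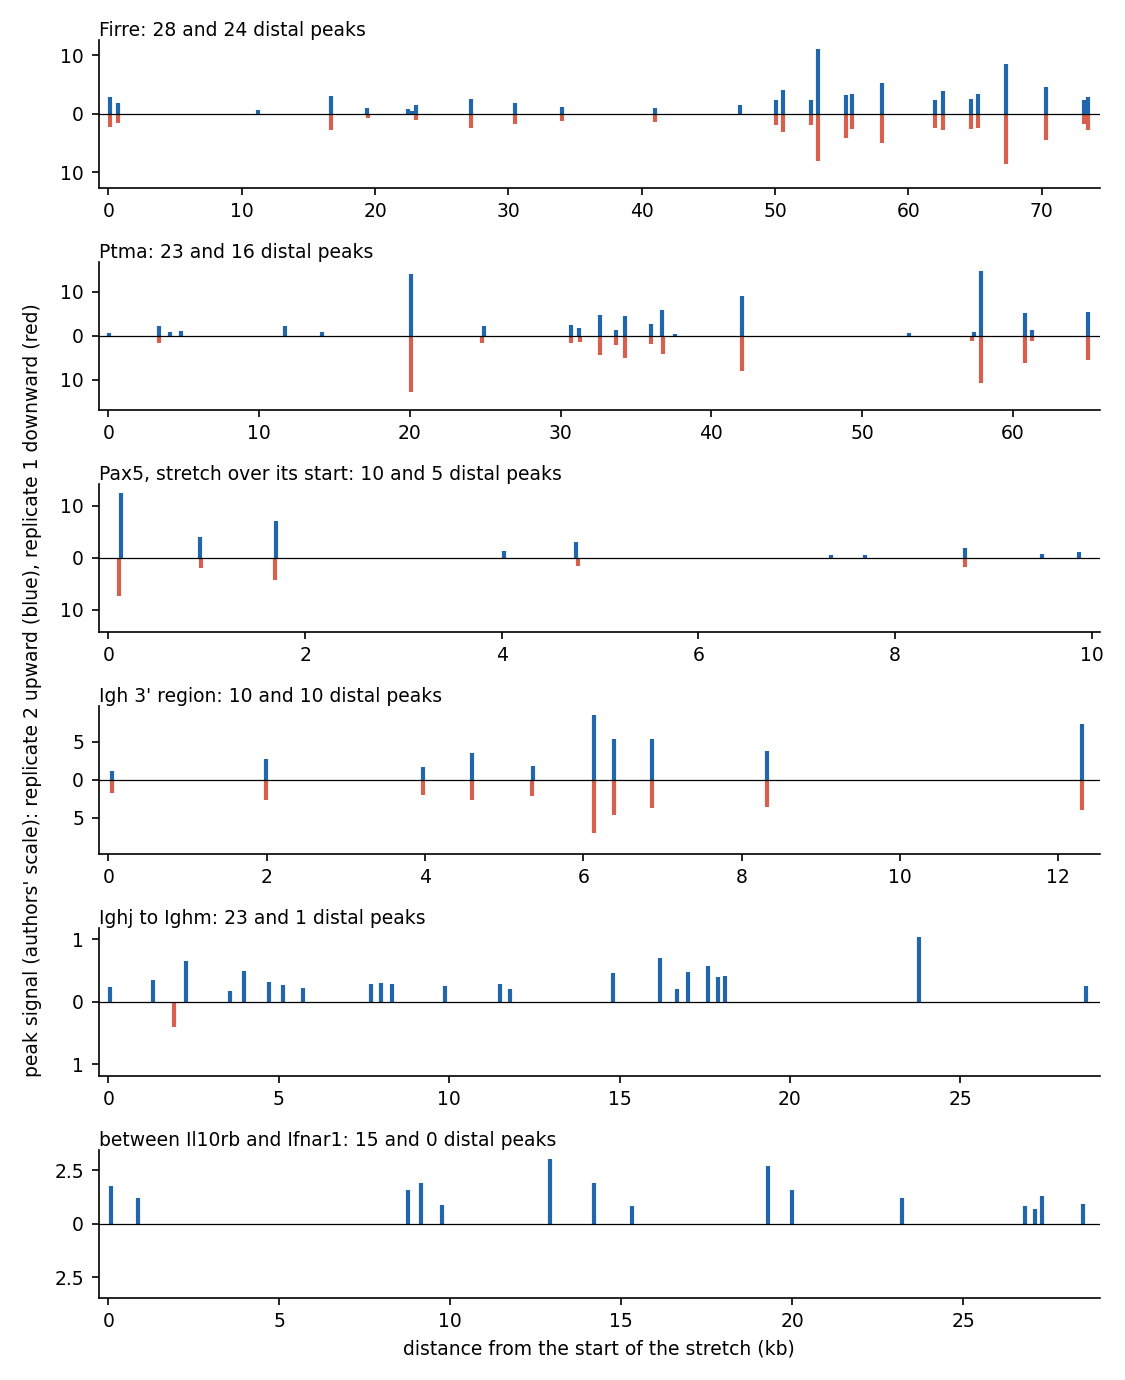
Signal of each distal peak (authors' scale) against its distance in kb from the start of the stretch, for 6 stretches; blue lines upward are replicate 2 and red lines downward are replicate 1. Firre, Ptma, Pax5 and the Igh 3′ region have the same main peaks in both libraries, while the Ighj to Ighm stretch has 23 and 1 and the stretch between Il10rb and Ifnar1 has 15 and 0.

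The 4 stretches at genes of B cells and lymphocytes below are shown by their strongest shared peak. Capitals mark every match to any of 14 short consensus motifs, searched on both strands. Those matched here are the E-box CACCTG, bound by E proteins, the SP/KLF letters GGGCGGG, bound by zinc-finger factors active at many promoters, the ETS letters CCGGAAG, bound by a large family active in blood cells, and the RUNX letters TGTGGTT, bound by factors of blood cell development. A match is a run of letters and not a bound site. All 4 are given on the plus strand of mm10.
Pax5 peak chr4:44704481-44704740, E-box and SP/KLF: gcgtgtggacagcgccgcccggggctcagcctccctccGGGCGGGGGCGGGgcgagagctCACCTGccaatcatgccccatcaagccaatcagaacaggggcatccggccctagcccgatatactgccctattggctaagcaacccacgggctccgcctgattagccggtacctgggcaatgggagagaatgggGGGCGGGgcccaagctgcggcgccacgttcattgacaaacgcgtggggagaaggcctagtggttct
Cd79b peak chr11:106308241-106308460, E-box and ETS: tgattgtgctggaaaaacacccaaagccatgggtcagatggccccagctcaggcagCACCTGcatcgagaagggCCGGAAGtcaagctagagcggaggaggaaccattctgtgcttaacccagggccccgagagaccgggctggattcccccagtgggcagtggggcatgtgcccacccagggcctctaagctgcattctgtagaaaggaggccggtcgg
Ikzf1 peak chr11:11766221-11766420, RUNX: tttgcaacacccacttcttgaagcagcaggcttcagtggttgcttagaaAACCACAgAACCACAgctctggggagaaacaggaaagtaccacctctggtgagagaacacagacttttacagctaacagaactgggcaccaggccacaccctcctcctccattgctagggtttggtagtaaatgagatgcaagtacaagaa
Id3 and E2f2 peak chr4:136180521-136180740, SP/KLF: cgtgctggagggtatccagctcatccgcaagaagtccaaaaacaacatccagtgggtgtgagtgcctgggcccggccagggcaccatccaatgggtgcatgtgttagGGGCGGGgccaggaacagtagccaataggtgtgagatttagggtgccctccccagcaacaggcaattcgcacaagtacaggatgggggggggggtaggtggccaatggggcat

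Pax5 encodes the factor that maintains B cell identity, and 2 stretches overlapped it, with 15 replicate 2 peaks and 10 distal replicate 1 peaks in all. The stretch over its start, chr4:44704481-44714460, held 10 and 5 peaks within 9.98 kb. Its strongest peak, printed above, lies in Pax5 and in an exon of the overlapping transcript 5730488B01Rik, and had a signal of 12.4 in replicate 2 and 7.44 in replicate 1. The 5 peaks with no replicate 1 partner had replicate 2 signals of 1.39, 0.579, 0.579, 0.738 and 1.08, and the 5 with a partner ranged from 1.86 to 12.4. The stronger peaks were thus the shared ones. The second stretch, chr4:44667461-44680520, held 5 peaks in each library, and all 5 were shared.

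Cd79b encodes 1 of the chains through which the B cell receptor signals. Its stretch, chr11:106305881-106329986, also overlapped Scn4a. The stretch held 7 distal peaks in each library, and all 7 were shared. The signals in replicate 2 were 4.14, 11.3, 7.71, 2.54, 6.51, 4.08 and 1.85 along the stretch, and in replicate 1 they were 2.05, 5.82, 4.01, 1.37, 3.29, 3.43 and 1.66. The strongest peak, which is intergenic, was the same in both. The stretch ranked 44 by summed signal in replicate 2 and 56 in replicate 1.

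Ikzf1 encodes Ikaros, a zinc-finger factor of lymphocyte development. Its stretch, chr11:11716881-11788960, also overlapped Fignl1 and held 16 replicate 2 peaks and 13 distal replicate 1 peaks over 72.1 kb. The printed peak, with its midpoint in an intron, had the highest signal in both libraries, 7.02 and 3.32, and holds the RUNX letters at 2 places. The stretch over Id3, an inhibitor of E-box factors, and E2f2, a cell cycle factor, held 18 and 13 peaks over 62.4 kb (chr4:136140361-136202770). Its summed signal was 65.8 and 38.7, rank 6 in each library. Its strongest peak, of 10.7 and 6.35, lies in E2f2 and not in Id3, with its midpoint in an intron.

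Stretches overlapped 7 further genes of the B cell list. Ebf1, a factor that starts the B cell program, was overlapped by 2 stretches with 8 and 6 replicate 2 peaks, and with 10 and 1 distal replicate 1 peaks. Cxcr5, the chemokine receptor that guides B cells into follicles, shared a stretch of 11 peaks with Bcl9l, and replicate 1 had 8 there. Ciita, the master regulator of MHC class II genes, shared a stretch of 8 replicate 2 peaks with Dexi, and replicate 1 had 5 there. Cd79a, the other signalling chain of the receptor, had 6 and 3. Blk, a kinase of the receptor pathway, had 5 and 3, Btla, an inhibitory receptor, had 6 and 3, and Cd37, a tetraspanin, had 5 and 1. Replicate 1 held a distal peak in the stretches of all 9.

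The gene lists were read as the share of genes whose body a stretch overlapped. Over all 21951 protein-coding genes this was 1177 genes, or 5.36%. Of 22 B cell genes it was 9, or 40.9%, and of 30 lymphocyte transcription factors it was 18, or 60.0%. Of 23 T cell genes it was 2, of 16 erythroid genes 1, of 20 macrophage and monocyte genes 4, of 11 dendritic cell genes 2, of 11 NK cell genes 1 and of 15 genes of stroma and endothelium 1. None of 9 neutrophil genes, 16 genes of other tissues and 14 housekeeping genes was overlapped, although promoter peaks were present at all 14 housekeeping genes in each library. The lists were compiled with earlier results of these data known, and no test was made.

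Long genes were overlapped more often, so the lists were also read within bands of gene length. Among genes of at most 10 kb, 2.52% of all, 3 of 8 B cell genes and 3 of 5 transcription factors were overlapped. Among genes of 10 to 25 kb, 5.00% of all, 0 of 4 B cell genes and 4 of 4 transcription factors were. Among genes of 25 to 50 kb, 6.00% of all, 3 of 5 B cell genes and 0 of 2 transcription factors were. Among genes of 50 to 100 kb, 8.91% of all, 1 of 2 B cell genes and 4 of 7 transcription factors were. Among genes over 100 kb, 10.5% of all, 2 of 3 B cell genes and 7 of 12 transcription factors were. The median length was 15.8 kb in the B cell list, 89.6 kb in the transcription factor list and 17.4 kb over all protein-coding genes. With at least 5 distal replicate 1 peaks required in the stretch, 5 of 22 B cell genes and 10 of 30 transcription factors were overlapped, against 441 of 21951 genes.

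**Figure D2:**
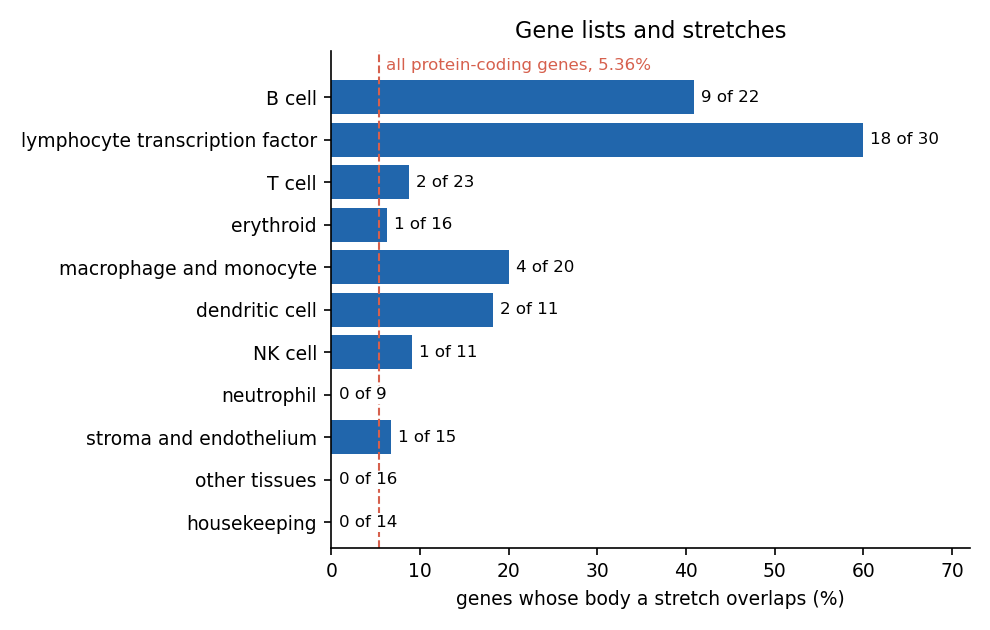
Share of genes, in percent, whose body is overlapped by a stretch, for 11 gene lists; bars start at 0, the counts stand beside them and the dashed line is the share over all protein-coding genes. The lymphocyte transcription factor list (18 of 30) and the B cell list (9 of 22) have the longest bars, and 3 lists are at 0.

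Among the transcription factors, Foxp1, which acts in B cell development, was overlapped by 5 stretches with 32 replicate 2 peaks. Replicate 1 had 13 distal peaks there, in 3 of the 5 stretches. Nfatc1, a factor activated by antigen receptor signalling, had 2 stretches with 13 and 11 peaks, and Bach2, a repressor of plasma cell differentiation, had 2 with 11 and 8. Pou2f2, which binds the octamer motif in immunoglobulin genes, had 7 peaks in each library with summed signals of 29.3 and 18.8. Id2, a relative of Id3, had 5 in each, and Elf1, an ETS factor, had 7 in each. Irf8, a factor of B cells and of the myeloid lineage, had 11 replicate 2 peaks and 2 in replicate 1, and Irf4, a factor of plasma cells, had 6 and 2. The libraries thus held like numbers of peaks at some of these genes and unlike numbers at others.

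In the lists of other blood cells the shares were 8.70% for T cell, 6.25% for erythroid, 20% for macrophage and monocyte, 18.2% for dendritic cell and 9.09% for NK cell genes, beside 5.36% over all protein-coding genes. These are 1 to 4 genes a list. Tcf7, which encodes a T cell factor, had a stretch of 7 weak replicate 2 peaks, of 0.220 to 1.41, and no distal replicate 1 peak. Cd2, an adhesion molecule of T and other lymphocytes, had 8 and 3. Cebpb, a myeloid factor, shared with Tmem189 a stretch of 7 in each library, with summed signals of 15.5 and 15.4. Spi1, which encodes PU.1 in myeloid cells and B cells, had 5 and 2, and Flt3, a receptor of progenitor and dendritic cells, had 10 and 6. Klrb1c, the NK cell receptor NK1.1, shared a stretch of 8 and 7 with Gm44511. Pecam1, an adhesion molecule of endothelium and blood cells, had 6 and 5, and Ank1, ankyrin of the red cell membrane, had 5 and 3.

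Over all members the median was 6 peaks (5 to 37), a length of 20.1 kb (1.78 to 97.6) and a summed replicate 2 signal of 11.1 (0.497 to 111). Of the 1370, 529 held exactly 5 peaks, 196 held 10 or more and 16 held 20 or more, and together they spanned 30.6 Mb. They held 35.0% of the summed distal signal of replicate 2 in 25.6% of its distal peaks. At the edge of the rule, the 529 groups of 5 peaks had a median length of 15.2 kb and a median summed signal of 7.53, and the 873 groups of 4 peaks had 11.9 kb and 5.19. The share of distal peaks that lay in stretches ran from 19.3% on chromosome 18 to 31.3% on chromosome 17, and was 21.6% on X.

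Stretches were also ranked by their summed replicate 2 signal. The highest, chrX:169972921-170022260 at Mid1 and Gm21887, held 25 peaks with a sum of 111 in replicate 2 and 11 with 74.7 in replicate 1. Its highest replicate 2 peak was 32.1 against a median of 0.851, and 9 of the 25 were shared. Of its peak bases, 26.9% were soft-masked. The stretch at Ptma, which encodes the abundant nuclear protein prothymosin alpha, lies at chr1:86467525-86532640, with sums of 85.1 and 69.1. It held 23 replicate 2 peaks, of which 16 were shared, and 16 distal peaks in replicate 1. Its 7 unshared peaks had signals of 0.466 to 2.17, and its strongest in replicate 2, of 14.7 there and 10.7 in replicate 1, lay upstream of Ptma. In replicate 1 another peak was the strongest, with 12.8 there and 14.0 in replicate 2.

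The stretch over Midn and Atp5d, a subunit of ATP synthase, held 14 and 9 peaks with sums of 80.4 and 45.2. Csk, the kinase that restrains Src-family kinases in lymphocytes, had 13 and 6 with sums of 63.5 and 27.3. The stretch with the host gene of miR-142, a microRNA of blood cells, had 16 and 6 (chr11:87720425-87771280) and also overlapped Rnf43, Supt4a and Tspoap1. Akna, which encodes an AT-hook protein of lymphocytes, shared a stretch of 15 and 8 with Whrn. The stretch at Il12rb1, a receptor chain for interleukin 12, had 16 and 9, with 1 peak of 23.6, and also overlapped Arrdc2, Ccdc124, Kcnn1 and Mast3. A stretch over noncoding genes on chromosome 18, nearest to Psd2, had 22 and 13. Replicate 1 held fewer distal peaks than replicate 2 in each of these, as it did in 1268 of all 1370 stretches.

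The longest stretch, of 97.6 kb, lay over Exoc6, a subunit of the exocyst, with 19 and 11 peaks. The next, of 93.8 kb, lay over noncoding genes 17.4 kb from the start of Klf13, a Kruppel-like factor, with 22 and 13 (chr7:63956269-64050020). Cyth1, an exchange factor for ARF proteins, had 18 and 10 over 92.7 kb, Pik3ap1, a B cell adaptor for PI3 kinase, had 21 and 9 over 85.1 kb, and Aff1, a subunit of the super elongation complex, had 20 and 10 over 80.3 kb. Dtx1, a regulator of Notch signalling, shared a stretch of 22 and 12 with Rasal1, and Rin3, a regulator of Rab5, had 19 and 15.

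In position, 977 of the stretches (71.3%) overlapped a protein-coding gene. The other 393 lay at a median of 30.9 kb from the nearest protein-coding start. Of all 1370, 94 lay over 100 kb from such a start. Although each counted peak is distal, 635 stretches span an annotated start site of any gene type. In 482, a replicate 2 peak within 1 kb of a start site lay inside and was left out by the rule. The share overlapping a gene was not compared with other intervals of like length. A stretch 419 kb from the nearest such start, that of Mef2c, a factor of B cells and muscle, held 9 and 2 peaks. The farthest, nearest to Klf4 at 514 kb, held 9 and 0, all of low signal, and another inside Wwox, 439 kb from a start, held 5 and 3. Of the single peaks, 53.5% had their midpoint in the body of a protein-coding gene (95% Wilson interval 52.5 to 54.5, counting error only), against 54.7% of other distal peaks (54.1 to 55.3).

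Replicate 1, which took no part in the choice, had 23309 distal peaks among 42454. Of these 5222 (22.4%) lay in the stretches, and they carried 30.6% of its summed distal signal. The stretches held a median of 4 distal replicate 1 peaks (0 to 26). In 1268 stretches replicate 1 had fewer than replicate 2, in 87 as many and in 15 more. The rule itself favours this, since it required at least 5 replicate 2 peaks and replicate 2 has more distal peaks (38083). Replicate 1 had 0.536 distal peaks per replicate 2 peak in stretches, 0.584 in groups of 4 and 0.599 in groups of 2. A distal replicate 1 peak was present in 1323 stretches, or 96.6% (95.5 to 97.4), against 93.8% of groups of 4 peaks and 80.5% of groups of 2, which also span fewer bases. With the summed signal of the stretches ranked in each library, Spearman's rho was 0.88 across the 1370, and 0.47 for the peak numbers, as a description, since the stretches share 2 libraries.

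**Figure D3:**
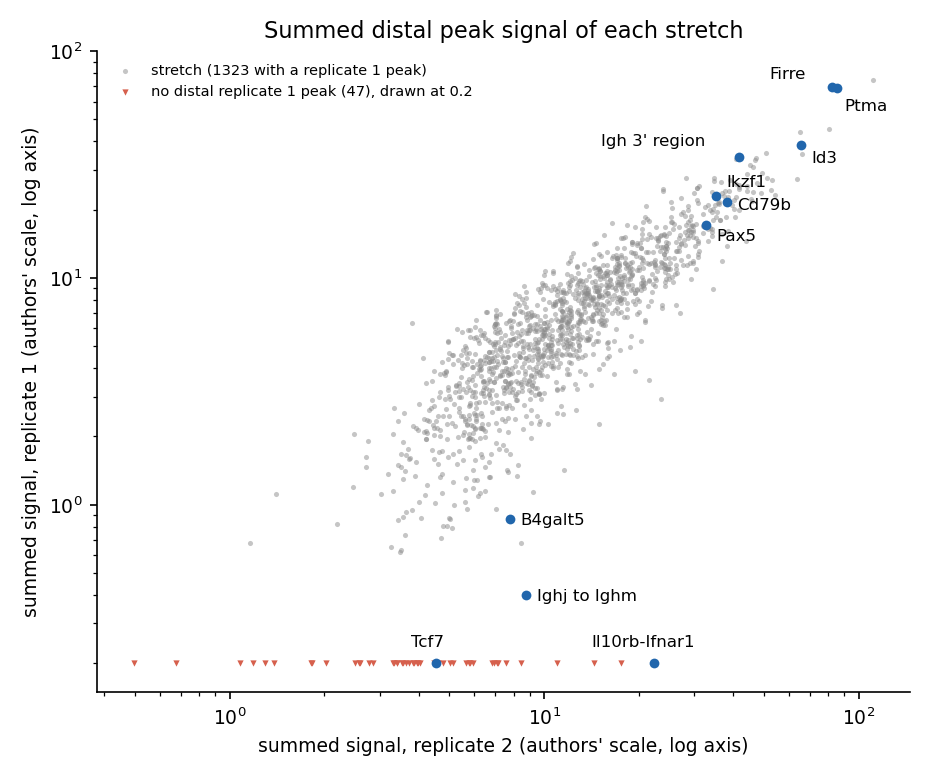
Summed distal peak signal (authors' scale, log axes) of each of the 1370 stretches in replicate 2 against replicate 1; triangles at 0.2 are the 47 stretches with no distal replicate 1 peak, and blue points are stretches described in the text. Most points follow 1 band up to Firre and Ptma, while Ighj to Ighm, B4galt5, Tcf7 and the stretch between Il10rb and Ifnar1 lie below it.

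When the same rule was applied to replicate 1, it gave 385 stretches, a mean of 878 ± 697 (SD, n = 2) over the libraries. Of the 385, 361 (93.8%) overlapped a stretch of replicate 2, and 356 of the 1370 (26.0%) overlapped one of replicate 1. That share was 11.5% of the stretches of 5 peaks, 29.6% of those of 6 to 9 and 53.1% of those of 10 or more. The number of stretches thus differed between the libraries by a larger factor than the number of distal peaks did, whereas nearly all stretches of replicate 1 were among those of replicate 2.

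Single peaks of the stretches were overlapped by a replicate 1 peak in 53.0% (52.0 to 54.0) of 9746, against 57.4% of all distal peaks and 58.6% (57.8 to 59.5) of lone ones. Since stretch peaks were stronger (median signal 1.29 against 0.723 for lone peaks), distal peaks were also compared within deciles of replicate 2 signal. In the strongest decile the shares were 98.7% in stretches and 100% for lone peaks. In decile 5 they were 32.3% (29.5 to 35.2) and 82.7% (80.3 to 84.9), and in the last 6.52% and 19.5%. With the deciles weighted as among stretch peaks, lone peaks came to 79.9% and all distal peaks outside stretches to 74.6%. The intervals of stretch and lone peaks did not overlap in any decile.

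**Figure D4:**
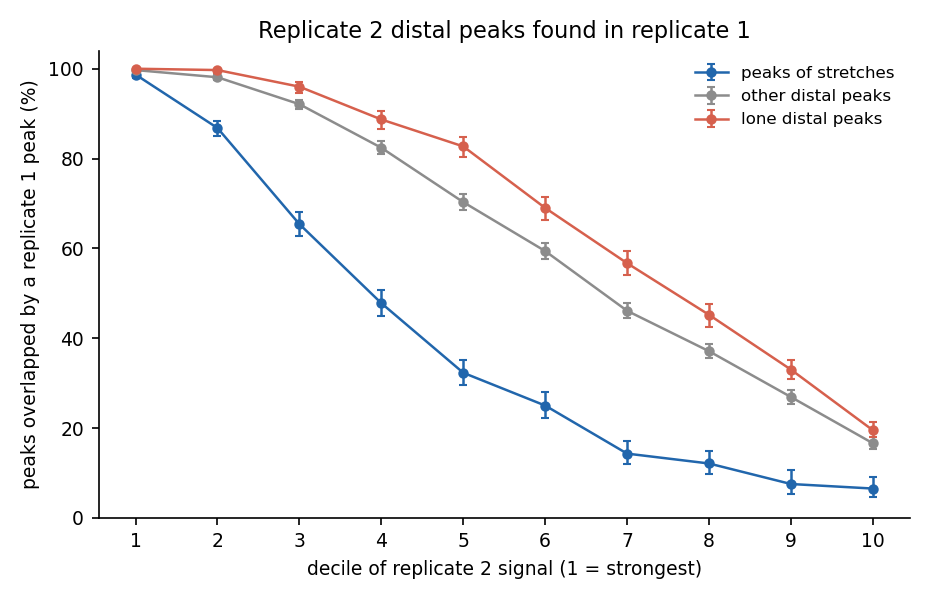
Share of replicate 2 distal peaks, in percent, that a replicate 1 peak overlaps, by decile of replicate 2 signal (1 is the strongest); points are peaks of stretches, other distal peaks and lone distal peaks, and bars are 95% Wilson intervals. Stretch peaks lie below the others from decile 2 on, at 32.3% against 82.7% for lone peaks in decile 5.

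Distance between peaks, which the rule used, describes the same comparison in bands. Among peaks of deciles 4 to 7, 72.8% (71.5 to 74.1) were shared when the nearest other distal peak was over 12500 bases away, 55.4% at 5 kb to 12500 bases, 42.5% (40.1 to 44.9) at 0.5 to 1 kb and 47.1% (44.7 to 49.5) below 0.5 kb. In the stretches found by the rule on replicate 1, 94.9% of peaks were overlapped by replicate 2, against 93.4% of its other distal peaks, or 97.2% at equal signal.

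Each library also has a longer peak list. Its part in the lower sharing of stretch peaks was not tested. Of the distal peaks in the longer list of replicate 1 (37996), 7500 lay in the stretches. In decile 5 of signal, 47.8% (44.5 to 51.2) of those inside stretches were also in the shorter list, against 85.2% (83.9 to 86.5) of those outside. Over all deciles, weighted as inside, it was 68.9% inside and 85.9% outside. In replicate 2, on whose shorter list the stretches were chosen, decile 5 gave 75.5% and 82.8%, and the weighted shares were 84.7% and 85.0%. In replicate 1 a peak of equal signal was thus less often in the shorter list inside a stretch than outside, except in the weakest decile, where it was 29.2% inside and 1.26% outside. In replicate 2 the weighted shares were nearly equal, and in its deciles 9 and 10 the inside share was the higher. With the longer replicate 1 list, 73.0% of stretch peaks were shared, against 91.1% of lone peaks at equal signal.

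**Figure D5:**
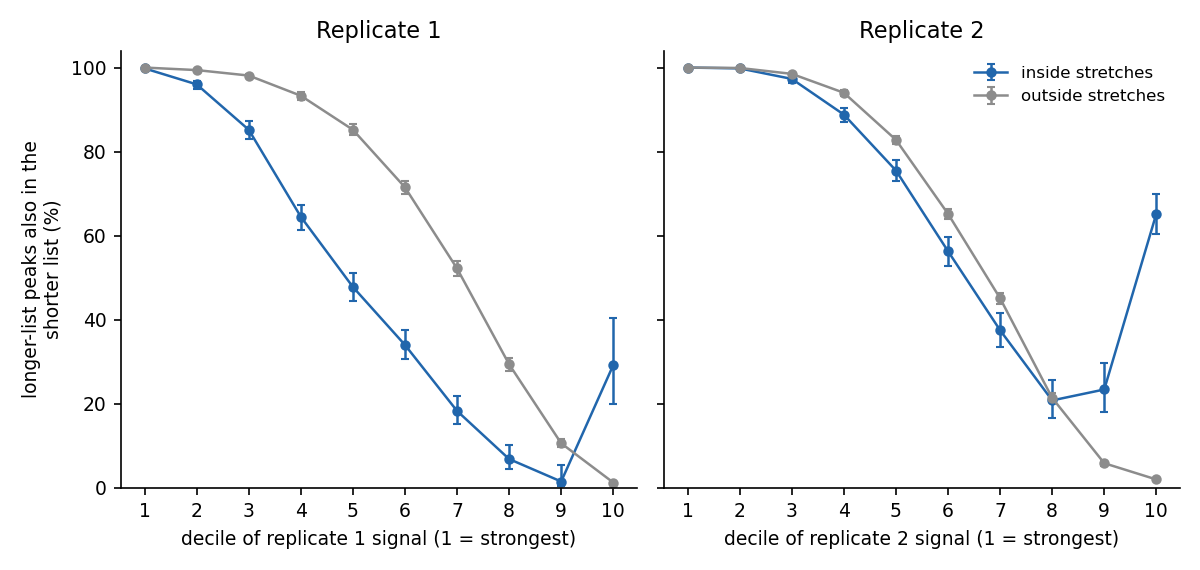
Share of distal peaks of the longer list, in percent, that are also in the shorter list, by decile of the library's own signal (1 is the strongest), inside and outside the stretches; bars are 95% Wilson intervals. In replicate 1 the inside share is below the outside share from decile 2 to decile 9, and in both libraries it is above it in the last.

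The deposited cut rate track lists runs of bases with a false discovery rate under 0.05, and was read between peaks, outside every peak of both lists and both libraries. In the gaps of a stretch such runs covered a median of 1.99% of bases in replicate 1 and 4.24% in replicate 2. In flanks that together were as long as the stretch, the medians were 0.368% and 0.842%. The gap value was above the flank value in 1082 stretches (79.0%) in replicate 1 and in 1220 (89.1%) in replicate 2. The coverage by such runs was thus higher between the peaks of a stretch than around it in most stretches, in both libraries. The rule itself favours this result. Gap bases lie between the chosen replicate 2 peaks, whereas a stretch ends where no further such peak lies within the joining distance. Whether coverage differs apart from the rule was not tested.

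Footprints, short stretches inside open chromatin that are protected from cutting, numbered 1.42 per stretch peak in replicate 1 and 2.61 in replicate 2. Lone distal peaks had 1.29 and 2.39, but 1.94 and 2.86 at the stretch peaks' signal. Stretch peaks had a GC content of 52.8% in the central 200 bases, against 51.8% for lone peaks at equal signal.

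Of the 14 motifs, searched in the central 200 bases of each peak, the CTCF letters CNAGGNGGC, where N is any base, differed by the most percentage points between stretch and lone peaks. Its letters were in 7.36% of stretch peaks (6.86 to 7.89) against 12.2% of lone peaks (11.6 to 12.8), 11.3% of other distal peaks at equal signal and 10.3% of peaks near start sites. The EBF letters CCCNNGGGA, bound by the factor that starts the B cell program, were in 6.72% of stretch peaks (6.24 to 7.24), 4.73% of lone peaks (4.36 to 5.13) and 5.94% of other distal peaks at equal signal. The octamer ATGCAAAT was in 2.71% and 2.06%, with intervals of 2.40 to 3.05 and 1.82 to 2.33. In other distal peaks at equal signal it was in 2.44%, inside the interval of stretch peaks. The SP/KLF letters were in 7.47% of stretch and 4.94% of lone peaks but in 7.20% of other distal peaks at equal signal and 35.1% of peaks near start sites. The PU.1 letters GAGGAAGT were in 7.69% of stretch peaks (7.17 to 8.23) and 7.5% of lone peaks (7.04 to 7.99), with overlapping intervals. In other distal peaks at equal signal they were in 8.46%, above the interval of stretch peaks.

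The E-box letters were in 21.9% of stretch peaks (21.1 to 22.7) and 19.0% of lone peaks (18.3 to 19.7), and in 20.7% of other distal peaks at equal signal. The GATA letters AGATAA were in 8.41% (7.88 to 8.98) and 10.8% (10.3 to 11.4), and in 9.25% of other distal peaks at equal signal. The ETS letters were in 3.44% and 2.67%, and in 3.37% of other distal peaks at equal signal. The RUNX letters were in 8.38% and 9.15%, and in 9.14% of other distal peaks at equal signal. Those of IRF factors, GAAANNGAA, which act downstream of interferon, were in 6.74% and 7.25%. The composite ETS-IRF letters, GGAANNGAA, which can share bases with the PU.1 and IRF letters, were in 8.40% (7.87 to 8.97) and 9.16%. At equal signal they were in 9.66% of other distal peaks, above the interval of stretch peaks. Those of AP-1, an activation factor, were in 6.94% and 7.19% (TGANTCA), and those of NF-kB, a factor of inflammation, in 1.12% and 1.07% (GGGANTTTC). The TCF/LEF letters of Wnt signalling, CTTTGAA, were in 3.95% and 4.44%. In other distal peaks at equal signal the IRF, AP-1, NF-kB and TCF/LEF letters were in 7.02%, 7.08%, 1.17% and 3.73%.

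Within the stretches, shared and unshared peaks differed in motif content. The GATA letters, bound by factors of red cell and T cell development, were in 6.40% of shared and 10.7% of unshared stretch peaks. The CTCF letters were in 9.79% and 4.61%. Shared peaks are the stronger ones, and this was not separated from signal.

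Some members were found almost only in replicate 2. No distal replicate 1 peak lay in 47 stretches, and no replicate 1 peak of any kind in 36. In 23 of these 36 the longer replicate 1 list did have peaks, 58 in all, and in 13 it had none; the 36 held 248 distal peaks of replicate 2. The strongest of them lies on chromosome 16 between Il10rb, a chain of the interleukin 10 receptor, and Ifnar1, a chain of the type I interferon receptor, over the noncoding gene Gm49625 (chr16:91432841-91461502). Its 15 replicate 2 peaks had signals of 0.687 to 3.02, a median of 1.31 and a sum of 22.3, rank 217. Replicate 1 had 0 peaks there in the shorter list and 3 in the longer one, with signals of 1.30 to 1.65.

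The locus of the immunoglobulin heavy chain had stretches of both kinds. Downstream of its constant genes, chr12:113216087-113228520 held 10 peaks in each library, and all 10 were shared. Their signals ran from 1.21 to 8.51 in replicate 2 and from 1.68 to 7.06 in replicate 1, and their sum ranked 32 and 9. Of the 10, 3 held the CTCF letters. A second stretch over Igha, chr12:113241461-113257560, held 5 peaks in replicate 2 and 2 in replicate 1. These 2 stretches were picked after their values were seen.

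At the joining segments and the first constant gene Ighm, chr12:113403012-113431804, replicate 2 had 23 distal peaks and replicate 1 had 1, and 0 of the 23 were shared. Their signals were low, from 0.174 to 1.03 with a median of 0.302, and 50.4% of the bases between peaks lay in a cut rate run in replicate 2, against 0.452% in replicate 1. The strongest, of 1.03, was at chr12:113426701-113426980. Another 23 replicate 2 peaks inside it lay within 1 kb of an annotated start site and were left out by the rule.

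A set of 23 stretches with a median peak signal below 0.35, picked after values were seen, includes this one. They held 286 replicate 2 peaks and 40 distal replicate 1 peaks, and 12 of the 23 held no distal replicate 1 peak, against 35 of the other 1347. Of the 40, 26 lay in 1 member, chr4:3053154-3086358, which held 24 in replicate 2. The median density was 9.55 peaks per 10 kb, against 3.24 in the others. Runs covered a median of 18.6% of the bases between peaks in replicate 2 and 0.0743% in replicate 1, against 4.19% and 2.02% in the others. Of their peaks 7.34% overlapped another peak of the same list, against 0.793% in other stretches. In the lowest decile of the longer replicate 2 list, 65.2% of peaks inside all stretches were also in the shorter list, against 1.99% outside; the rule used these values.

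The member with the most peaks belongs to this set. It lies over B4galt5, a galactosyltransferase of the Golgi (chr2:167254314-167299140), with 37 replicate 2 peaks of 0.103 to 0.897 and 1 distal replicate 1 peak, of 0.865. Stat5a, a signal transducer of cytokines, had 10 and 0, Tmem72 had 14 and 0, and stretches nearest to Trim42 and Dock3 had 17 and 11 with 0 in replicate 1. The stretch over H2-Ab1, an MHC class II chain, and H2-Ob had 18 and 3. At H2-Ab1 the median was 0.233 but the highest peak reached 9.66. B4galt5 thus stood first of 1370 by number of peaks and at 947 by summed signal.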

How the data were processed

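DNase-seq was made on 2 spleen libraries, 1 per biological replicate. The authors' deposited peak lists give a signal value per peak, whose scale no source states, and each library has a longer and a shorter list. In the deposited cut rate file, each run of bases carries a q-value, all below 0.05. The deposited footprints carry a q-value threshold of 0.01 on every line. Per the labels the assembly is mm10; no source used here names the aligner or peak caller. Total read depth is unknown, and intervals (95%, Wilson) cover counting error only.

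The rule, overlaps (at least 1 base, or midpoints inside a stretch), motif searches and start site distances were computed with Python 3.11.15, numpy 2.4.6, pandas 2.3.3 and scipy 1.17.1, gaps with bedtools 2.31.1 and figures with matplotlib 3.10.9. The annotation has 77198 start sites. The functions were tested on simulated peaks. With 1 group of 2 libraries no test was made.

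The members and gene lists were chosen with earlier results of these data known. Chosen by rule were the 10 stretches with the most peaks in replicate 2 and the 10 with the highest summed signal. The 10 with the most replicate 1 peaks, the 5 longest and up to 5 with no replicate 1 peak were added. So were the 3 farthest from a protein-coding start, and up to 5 overlapped genes per list. Of these, stretches at Ppp1r16b, with 21 and 6 peaks, and Sfi1, with 19 and 13, are not described above. Nor are those at Fcgr1, with 5 and 3, Ccr2, with 5 and 2, and Tcf4, with 5 and 3. Further genes of the lists, Dxz4, the repeated words, the printed Firre and Dxz4 peaks, the low-signal set and the heavy chain stretches downstream were picked after their values were seen.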

Additional observations from a re-analysis of the deposited data

How the results depend on the processing

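The number of stretches depended on the rule. It was 1370, and 573 with joining over 5 kb, 2080 over 25 kb, 2243 with at least 4 peaks, 382 with at least 8, 2735 from the longer replicate 2 list and 831 from as many of the strongest peaks as replicate 1 has. The share of protein-coding genes overlapped was 5.36%, and 1.66%, 13.5%, 8.13%, 1.87%, 10.8% and 3.59% under these, 3.26% with 2.5 kb around start sites left out and 6.01% with protein-coding start sites only. The share of stretch peaks overlapped in replicate 1 was 53.0%, and 50.4%, 55.3%, 54.2%, 50.4%, 38.9% and 62.0% under the same 6, 54.0% with protein-coding start sites only, 73.0% with the longer replicate 1 list and 47.8% with an overlap of 50% of the peak. The share of stretches with a replicate 1 peak was 96.6%, and 93.5% with 5 kb, 98.7% with 25 kb, 92.9% with the longer replicate 2 list, 98.6% with the strongest peaks and 99.0% with the longer replicate 1 list. Without replicate 2, the rule on replicate 1 gave 385 stretches, all with a replicate 2 peak (100%), 94.9% of their peaks overlapped and 1.56% of genes. The cause was not tested. No paired analysis was possible because both libraries belong to 1 group.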
